A study of Mus musculus with 39 samples.

Results

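The data below follow 10 genes of dead-cell clearance and ligand uptake through 39 RNA-seq libraries of mouse lung myeloid cells: the receptors Mertk, Axl and Stab1, the bridging proteins Gas6 and Mfge8, and the scavenger receptor genes Msr1, Cd36, Cd68, Scarb1 and Olr1. They were taken by symbol, and all 10 matched 1 row each of the 43430 rows of the count table. Every mouse was C57BL/6J. Lung monocytes of naive mice made up 4 groups (20 libraries, 5 per group). The other 4 groups were monocyte-derived alveolar macrophages sorted as low for Siglec F after bleomycin, which damages the alveoli and serves as a model of lung fibrosis (19 libraries: 5 per group, and 4 for young ISRIB). Within each cell type the groups were young saline, young ISRIB, old saline and old ISRIB, where ISRIB is a compound that inhibits integrated stress response signalling. Ages are given as 8 to 12 weeks and over 18 months in the sample labels but as 3 to 5 and 18 to 24 months in the series text. Injections into the peritoneum were daily from day 7 and cells were taken on day 21 after bleomycin; no such timing is given for the naive mice. Cell type and bleomycin cannot be told apart in this design. The labels do not say that the libraries of a group came from separate animals, so p-values measure the spread between libraries, which may be in part technical.

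Efferocytosis is the engulfment of dying cells. Mertk and Axl are receptor tyrosine kinases of the TAM family, which do not touch the dying cell directly: Gas6 binds phosphatidylserine exposed on its surface and, at the other end, the receptor. Mfge8 bridges phosphatidylserine to integrins, and Stab1 binds it directly. Scavenger receptors take up modified lipoproteins and other ligands: Msr1 is the class A receptor, Cd36 and Scarb1 are of class B (Cd36 takes up fatty acids and oxidised lipoprotein, Scarb1 exchanges cholesterol with high-density lipoprotein), Olr1 is the lectin-like receptor for oxidised low-density lipoprotein, and Cd68 is a glycoprotein of late endosomes and lysosomes. Resident alveolar macrophages use such receptors to clear surfactant and dead cells from the air spaces.

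The libraries held between 4595331 and 16056708 counts (median 8628240). The shallowest, young saline monocyte replicate 4, had 12324 genes with a count, against 15196 to 15773 in the rest of its group. It also held the lowest monocyte levels of Msr1 (145 CPM) and Olr1 (1.74 CPM). The deepest, young saline macrophage replicate 5, had 17313 genes with a count, against 13959 to 14566 in the rest of its group. Levels below are counts scaled to the library's total (CPM). The sorts were checked against marker genes. Ly6c2, a marker of classical monocytes, had group means of 387 to 561 CPM in monocytes and of 0.968 to 3.07 CPM in macrophages. It is 1 of 10 classical monocyte markers, of which 9 were called lower in macrophages and 1, Chil3, higher. Summed, these 10 overlapped between the sorts, at 6798 to 14562 CPM in monocyte libraries and 4172 to 12260 CPM in macrophage libraries. The 10 markers of nonclassical monocytes summed to 3087 to 8734 CPM in monocyte libraries and to 1459 to 1950 CPM in macrophage libraries. Within young saline monocytes alone the sum ran from 3087 to 7608 CPM. Its part in the spread of the 10 genes among monocytes was not tested. Siglecf, whose product the macrophages were sorted as low for, had group means of 51.4 to 126 CPM in macrophages and of at most 0.823 CPM in monocytes. In proliferation genes, young ISRIB macrophage replicate 3 stood apart from its group: it held 466 CPM over 10 genes, against 119 to 241 CPM in the other 3. The same sum was 348 to 407 CPM in young saline, 174 to 603 in old saline and 153 to 283 in old ISRIB macrophages. The young ISRIB library was kept. It was singled out from these same data, although its sum lay within the old saline range. It also had the lowest Cd36 (142 CPM) and the highest Scarb1 (221 CPM) of its group. Results that rest on it are given with and without it, and every other library was also left out in turn.

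Promoters are printed here for 3 genes: Mertk and Olr1, which had 2 of the 3 largest differences between the cell types, and Cd36, which was called with both age and ISRIB. Each is the 250 bases before the gene's start in RefSeq on GRCm38.p6, on the gene's strand, with motif matches in capitals. Mertk lies at chr2:128698665-128698914 on the plus strand, Cd36 at chr5:17835897-17836146 on the minus strand, within the span of its GENCODE gene, and Olr1 at chr6:129507166-129507415 on the minus strand.

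Mertk: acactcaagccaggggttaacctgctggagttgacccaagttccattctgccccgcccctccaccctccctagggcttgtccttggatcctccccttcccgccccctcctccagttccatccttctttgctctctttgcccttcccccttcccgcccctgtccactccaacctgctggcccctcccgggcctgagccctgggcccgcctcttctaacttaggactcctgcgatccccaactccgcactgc
Cd36: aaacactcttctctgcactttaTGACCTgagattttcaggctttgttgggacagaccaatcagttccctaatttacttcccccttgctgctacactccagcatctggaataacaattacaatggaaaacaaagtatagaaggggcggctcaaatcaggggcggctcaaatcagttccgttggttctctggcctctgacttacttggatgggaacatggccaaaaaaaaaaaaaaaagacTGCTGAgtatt
Olr1: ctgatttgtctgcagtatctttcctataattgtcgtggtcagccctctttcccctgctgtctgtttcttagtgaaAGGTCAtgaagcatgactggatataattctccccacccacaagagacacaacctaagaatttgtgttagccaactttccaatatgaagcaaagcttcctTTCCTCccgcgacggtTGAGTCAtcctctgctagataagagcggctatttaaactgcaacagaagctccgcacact

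On both strands, 5 short motifs were searched in the promoters of the 8 of 10 genes found in the table, all except Msr1 and Scarb1. The half-site of nuclear receptors such as PPARs and LXRs, AGGTCA, was in 2 of 8 (Cd36, 228 bases before the start on the opposite strand, and Olr1, at 175) and in 14% of 32817 promoters. The AP-1 site TGANTCA was in 2 of 8 (Cd68 and Olr1) and in 6.75% of all. The PU.1 core GAGGAA was in 5 of 8 (Axl, Mfge8, Stab1, Cd68 and Olr1) and in 23.3% of all. The MAF half-site TGCTGA was in 2 of 8 (Stab1 and Cd36) and in 16.1% of all, and the E-box of MiT/TFE factors, TCACGTG, was in 0 of 8 and in 3.13% of all. No matches overlapped each other in these promoters, and the Mertk promoter held none of the 5.

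The first comparison asked how the genes differ between macrophages after bleomycin and naive monocytes, averaged over the 4 combinations of age and treatment. In macrophages 9 of the 10 genes were higher and Scarb1 was lower. All 10 were called, that is, had a Benjamini-Hochberg adjusted p under 0.05 in edgeR's quasi-likelihood test over 13587 genes; 79.2% of all genes tested were called in this comparison (39.9% higher, 39.2% lower), so a count of 10 called is near the background. The median log2 difference over the 10, 4.197, stood against 0.00 over all genes tested. In bulk samples fewer cells of a type and less RNA per cell cannot be told apart.

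**Figure D1:**
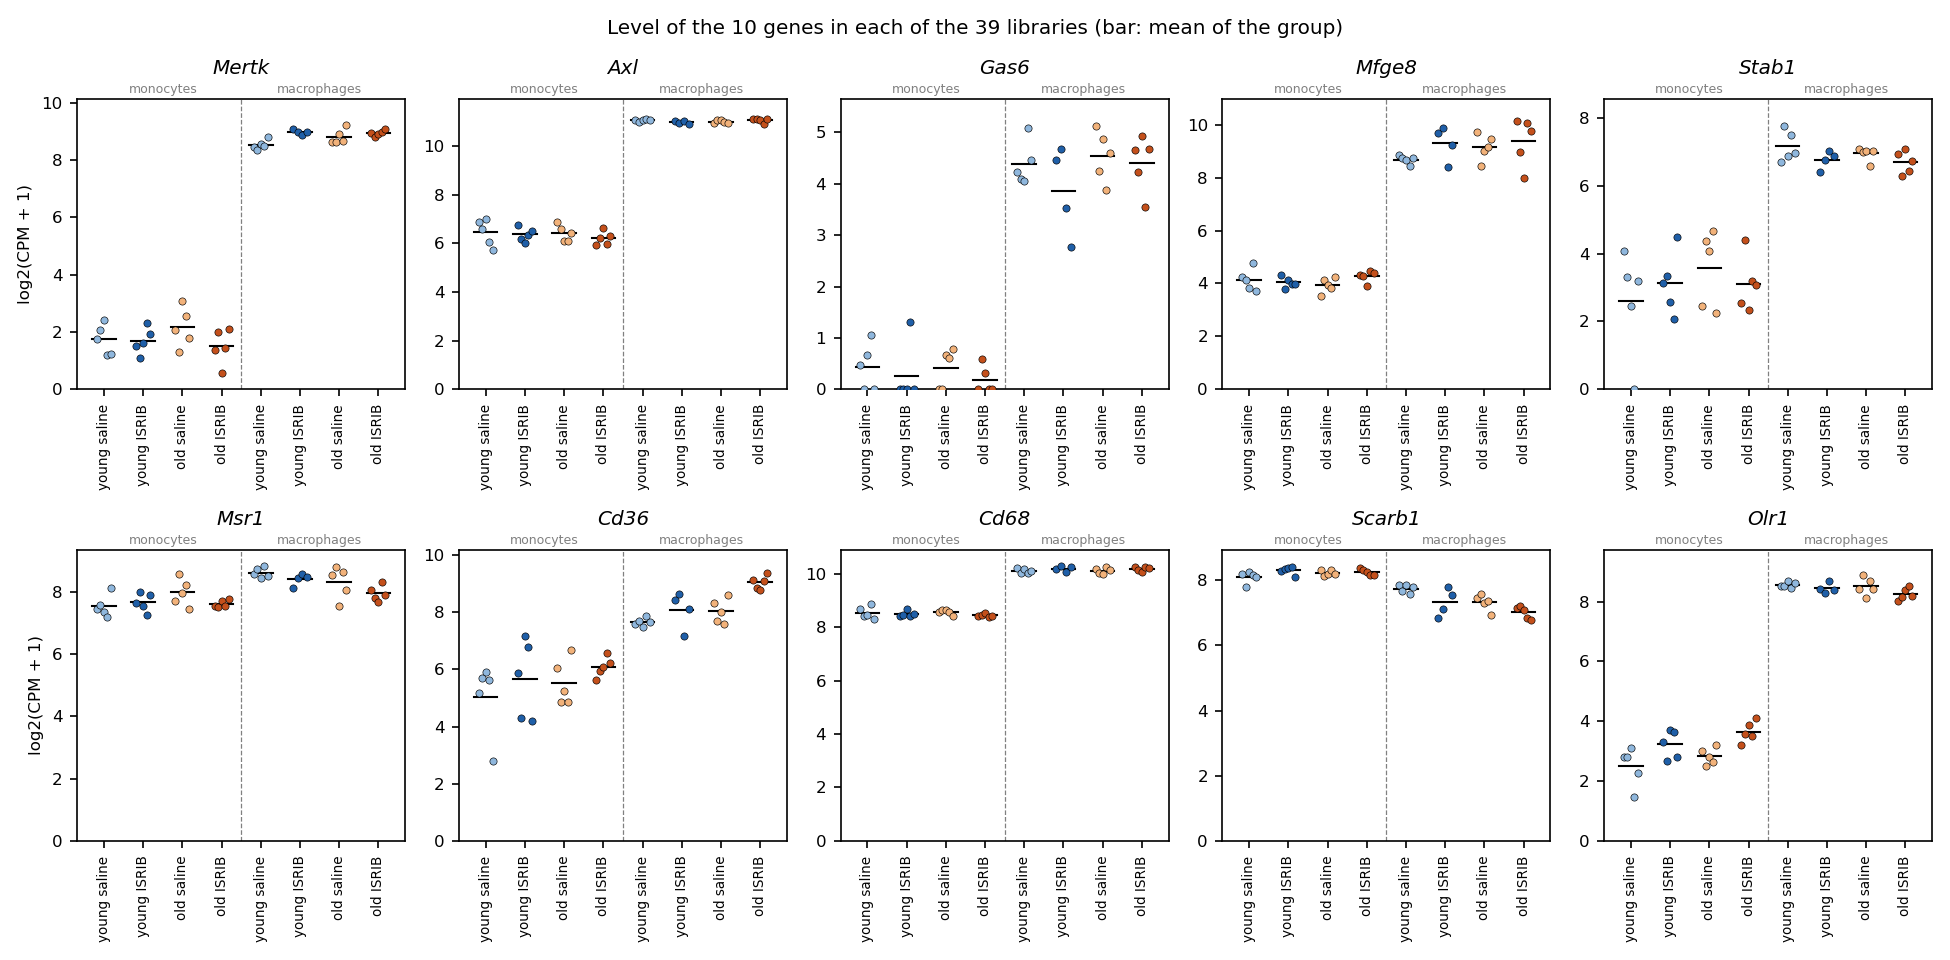
Level of each gene in each of the 39 libraries, as log2(CPM + 1), by group; points are libraries and bars are group means. Mertk, Axl, Gas6, Mfge8, Olr1, Stab1 and Cd68 form separate bands in the 2 cell types. Msr1 overlaps between them, Cd36 just overlaps, and Scarb1 sits lower in most macrophage libraries.

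Both TAM receptors separated the cell types without overlap. Mertk (chr2:128698956-128802894, GRCm38) ran from 326 to 600 CPM with a median of 467 in macrophages and from 0.485 to 7.47 CPM with a median of 2.39 in monocytes. The lowest macrophage library thus lay far above the highest monocyte library, and the difference was 7.49 ± 0.15 on the log2 scale (SE, n = 19 and 20; 179-fold; edgeR adjusted p = 5.01e-34). Axl (chr7:25757273-25788705) was already present in monocytes, at 52.3 to 127 CPM with a median of 79.1, and ran from 1941 to 2237 CPM with a median of 2139 in macrophages. Its difference was 4.72 ± 0.10 (26.3-fold; edgeR adjusted p = 1.14e-33), and its 19 macrophage libraries lay closer together than those of any other of the 10 genes relative to their mean, at 2102 ± 102 CPM (SD).

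The bridging proteins were both higher in macrophages. Gas6 (chr8:13465374-13494490) ran from 5.81 to 34.1 CPM with a median of 20.9 in macrophages and had 51 counts in all in monocytes, where 11 of 20 libraries held 0, which allows up to 0.294 to 0.433 CPM by library (3 counts). Its difference was 6.14 ± 0.34 (70.7-fold; edgeR adjusted p = 1.59e-19), a size that rests on these few counts: without young ISRIB monocyte replicate 4, which held 13 of the 51, it was 7.25. Mfge8 (chr7:79133768-79149060) ran from 251 to 1126 CPM with a median of 511 in macrophages and from 10.5 to 26.1 CPM with a median of 16.4 in monocytes, a difference of 5.28 ± 0.16 (38.8-fold; edgeR adjusted p = 4.76e-28). Neither gene's ranges overlapped between the cell types. Gas6 shares 34 exonic bases with Tmem255b on the opposite strand, which held 0 CPM in every library. As a measure of other cells, 10 fibroblast markers summed to 0.646 to 38.2 CPM in macrophages and 0 to 6.06 CPM in monocytes. Of 5 tested, 4 were called higher in macrophages and 0 lower, with a median log2 difference of 3.77. Their part in the Gas6 level was not tested.

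Stab1 (chr14:31139013-31168641), the receptor that binds phosphatidylserine directly, ran from 77.2 to 218 CPM with a median of 121 in macrophages and from 0 to 24.1 CPM with a median of 7.99 in monocytes. One monocyte library, young saline replicate 4, held no Stab1 count, which allows up to 0.653 CPM. It was also the shallowest library of all. The difference was 3.67 ± 0.24 (12.8-fold; edgeR adjusted p = 2.16e-17). Stab1 shares 112 exonic bases with Nt5dc2 on the opposite strand, whose level was at most 27.9 CPM. Stab1 is also a gene of sinusoidal endothelium, and 11 endothelial markers summed to 35.7 to 90.5 CPM in macrophages and 21.5 to 71.0 CPM in monocytes, and of 8 tested 1 was called higher in macrophages (Calcrl, 1.63 ± 0.12) and 1 lower (Pecam1, -2.77 ± 0.18), with a median of 0.55. Their part in the Stab1 level was not tested.

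The scavenger receptor genes spanned the widest range, from a large excess in macrophages to a deficit. Olr1 (chr6:129485244-129507165) ran from 261 to 474 CPM with a median of 344 in macrophages and from 1.74 to 16.3 CPM with a median of 7.24 in monocytes, a difference of 5.60 ± 0.12 (48.5-fold; edgeR adjusted p = 1.14e-33). Cd36 (chr5:17781690-17888801) ran from 142 to 660 CPM with a median of 274 in macrophages and from 5.99 to 143 CPM with a median of 54.2 in monocytes. The highest monocyte library, young ISRIB replicate 3, thus just overlapped the lowest macrophage library, and the difference was 2.52 ± 0.22 (5.75-fold; edgeR adjusted p = 1.98e-13). Platelets also carry Cd36: 10 platelet markers summed to 17.9 to 53.7 CPM in macrophages and 0.218 to 8.25 CPM in monocytes, and of 4 tested 3 were called higher in macrophages (Pf4, Clec1b and Treml1) and 1 lower (Itga2b), with a median of 2.94. Gp6 and Gp1bb were at 0 in all macrophage libraries and in several monocyte groups, and the part of platelet RNA was not tested.

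Cd68 and Msr1 were abundant in both cell types. Cd68 (chr11:69664213-69666153) ran from 1033 to 1249 CPM in macrophages and from 319 to 474 CPM in monocytes, with no overlap, a difference of 1.72 ± 0.05 (3.30-fold; edgeR adjusted p = 8.63e-30). Msr1 (chr8:39581685-39642673) ran from 187 to 452 CPM in macrophages and from 145 to 381 CPM in monocytes. These ranges overlapped widely, and the difference was 0.70 ± 0.10 (1.63-fold; edgeR adjusted p = 4.42e-08). Scarb1 (chr5:125277087-125341094) went the other way, at 110 to 229 CPM with a median of 162 in macrophages and 224 to 343 CPM with a median of 299 in monocytes. Its log2 difference was -0.78 ± 0.06 (edgeR adjusted p = 6.44e-15), so of the class B receptors Cd36 was higher and Scarb1 lower in macrophages.

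To compare levels between genes, CPM was divided by exonic length in kilobases. In macrophages Cd68 led at 914 ± 55.7 CPM per kb (mean ± SD, n = 19), then Axl at 418 ± 20.2, and these ranges overlapped neither each other nor any other gene's. Mfge8 (130 ± 56.5), Mertk (105 ± 17.1), Olr1 (98.4 ± 15.2) and Cd36 (90.8 ± 41.9 CPM per kb) followed with overlapping ranges, each above the next in only 10 to 12 of 19 libraries. Msr1 (51.9 ± 12.8) overlapped Cd36 but not Scarb1 (19.7 ± 4.80), and Stab1 (11.8 ± 3.21) and Gas6 (8.04 ± 3.01 CPM per kb) were the lowest. In monocytes the order was different below Cd68 (294 ± 28.4 CPM per kb, n = 20): Scarb1 (35.2 ± 3.21) and Msr1 (33.7 ± 8.98) came next with overlapping ranges, then Axl (16.7 ± 4.29) and Cd36 (16.01 ± 9.58), also overlapping. Mertk, between Mfge8 and Olr1 in macrophages, was the lowest but Gas6 in monocytes, at 0.622 ± 0.370 CPM per kb against 0.120 ± 0.166.

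**Figure D2:**
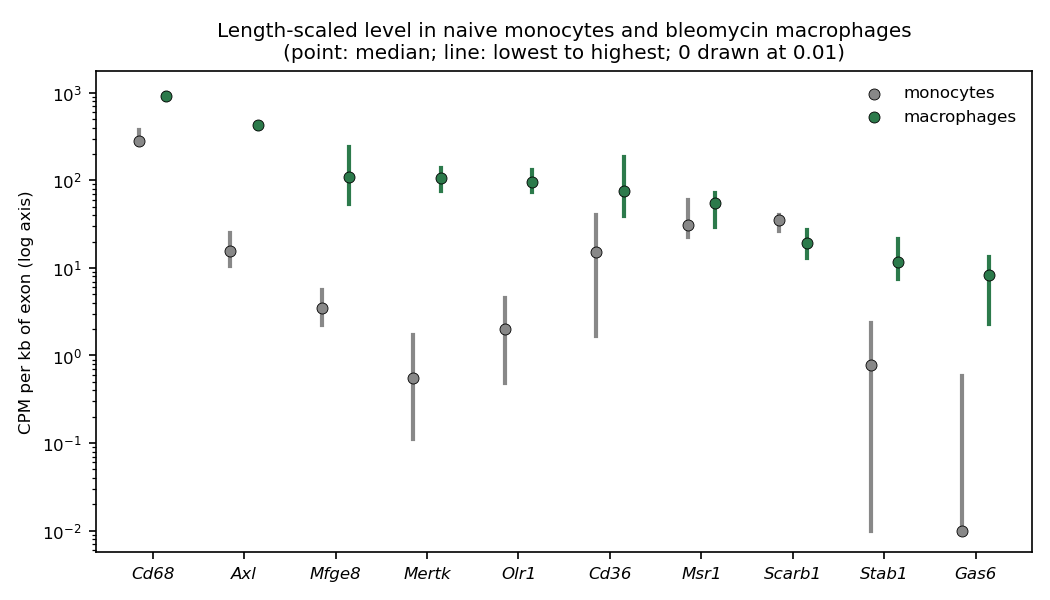
Level of each gene in CPM per kilobase of exon on a log axis, in monocytes (grey) and macrophages (green); points are medians over libraries, lines run from the lowest to the highest library, and 0 is drawn at 0.01. Cd68 is highest in both cell types (means of 294 and 914 CPM per kb), and the line of Mertk lies far apart in the 2 (means of 0.622 and 105).

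The second comparison asked how the genes differ with age in macrophages, taking the mean of the old against young differences in saline and in ISRIB. Cd36 was higher in old macrophages and Scarb1 lower, and the other 8 genes were not called. Of all 12171 genes tested, 4.86% were called in either direction (3.12% higher, 1.74% lower). The median log2 difference of the 10 genes was 0.03, against 0.00 over all genes.

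Cd36 stood at 193, 205, 178, 231 and 200 CPM in the 5 young saline libraries and at 343, 400, 142 and 274 CPM in the 4 young ISRIB libraries. It stood at 318, 204, 256, 192 and 390 CPM in old saline and at 555, 460, 443, 548 and 660 CPM in old ISRIB. Every old ISRIB library was above every other macrophage library, whose highest was 400 CPM, while old saline overlapped both young groups. The group means were 201 ± 19.5, 290 ± 111, 272 ± 82.6 and 533 ± 86.7 CPM (SD) in the same order. With age, Cd36 rose by 0.67 ± 0.15 on the log2 scale (SE; 95% interval 0.37 to 0.98; 1.59-fold; edgeR adjusted p = 0.00754). The call was kept without any 1 of the 19 libraries (adjusted p 0.00214 to 0.0222), but not when all 39 libraries shared 1 estimate of the spread (edgeR adjusted p = 0.294, range over 6 alternatives 2.92e-10 to 0.294).

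Scarb1 stood at 229, 203, 229, 192 and 220 CPM in young saline and at 115, 138, 221 and 186 CPM in young ISRIB. It stood at 175, 189, 158, 162 and 122 CPM in old saline and at 140, 149, 135, 115 and 110 CPM in old ISRIB. No old saline library reached the lowest young saline library, whereas young and old ISRIB libraries overlapped. With age, Scarb1 fell by 0.36 ± 0.10 on the log2 scale (95% interval of the difference -0.56 to -0.16; edgeR adjusted p = 0.0274). The call was kept under 6 of 6 alternative settings (adjusted p 3.61e-04 to 0.0494), but in only 14 of 19 fits that left out 1 library. It was lost without young saline replicate 1, young ISRIB replicate 3 or 4, old saline replicate 5 or old ISRIB replicate 5, with adjusted p up to 0.0868.

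The other 8 genes were not called with age. Msr1 had the largest difference among them with an unadjusted p under 0.05, -0.33 ± 0.12 (edgeR adjusted p = 0.142). Its group means were 395 ± 43.2 CPM in young saline, 343 ± 43.4 in young ISRIB, 333 ± 104 in old saline and 250 ± 45.9 in old ISRIB. Axl differed by 0.04 ± 0.04 (95% interval -0.05 to 0.12) and Cd68 by 0.02 ± 0.06 (-0.09 to 0.14); both intervals were narrow. The intervals for Gas6 (0.33 ± 0.22, -0.14 to 0.79) and Mfge8 (0.37 ± 0.22, -0.08 to 0.82) were wide. Mertk differed by 0.15 ± 0.07 (edgeR adjusted p = 0.315), Stab1 by -0.14 ± 0.12 and Olr1 by -0.09 ± 0.09.

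**Figure D3:**
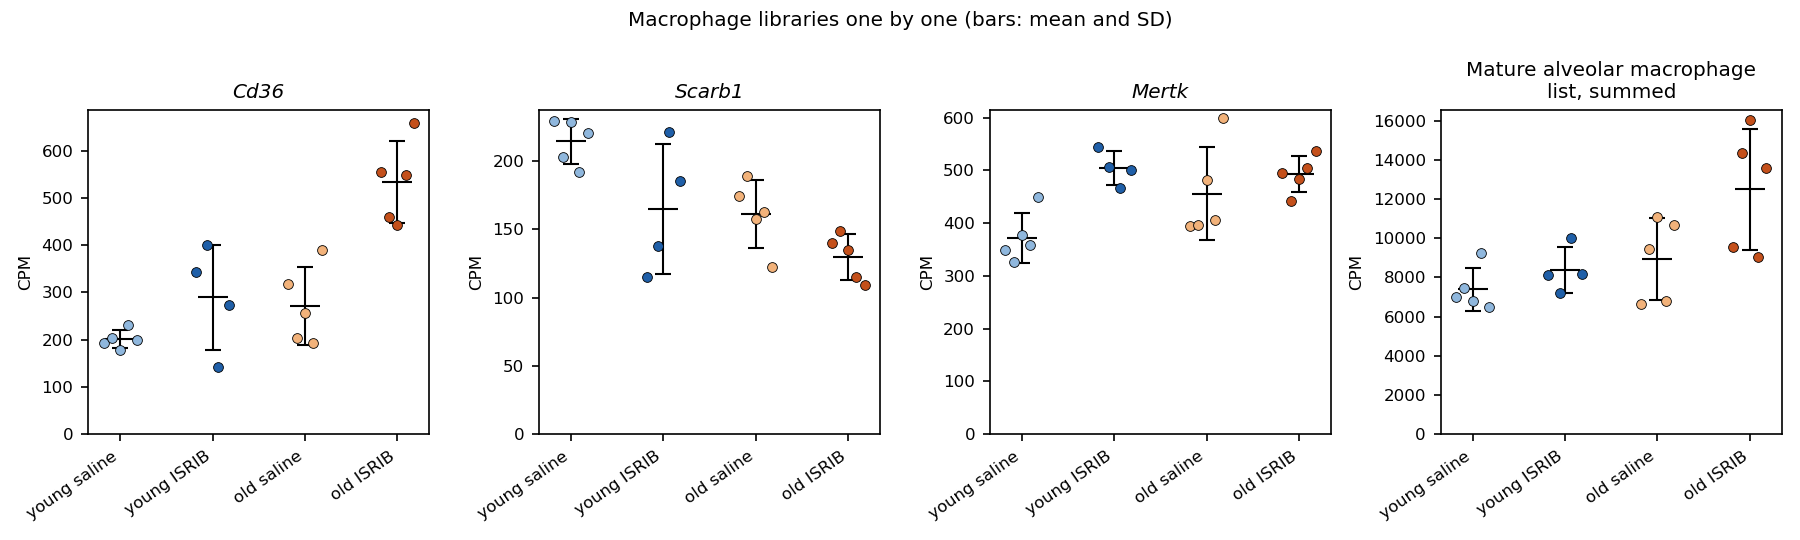
Level in CPM of Cd36, Scarb1 and Mertk and the summed level of 10 mature alveolar macrophage markers in the macrophage libraries, by group; points are libraries and bars are means ± SD. The 5 old ISRIB libraries of Cd36 (443 to 660 CPM) lie above all others, and old saline Scarb1 (122 to 189 CPM) lies below young saline (192 to 229 CPM).

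Markers of other cells moved with age in the same libraries. Of 10 genes typical of mature alveolar macrophages, 6 were called higher in old macrophages (Siglecf, Ear1, Fabp1, Marco, Krt79 and Chil3) and 0 lower. Their summed level ran from 6503 to 9250 CPM in young saline, 7201 to 10031 in young ISRIB, 6635 to 11055 in old saline and 9014 to 16034 in old ISRIB. Chil3, which is also on the list of classical monocyte markers, made up most of that sum, with group means of 4498 to 8826 CPM. Siglecf alone had means of 51.4 ± 4.49, 72.4 ± 9.50, 81.9 ± 29.9 and 126 ± 21.0 CPM in that order. Of 10 B cell markers, 8 were called higher with age, and their sum ran from 8.40 to 29.3, 10.1 to 23.6, 22.5 to 415 and 156 to 601 CPM in the same groups; 3 of 7 tested T and NK cell markers were called higher. Platelet markers summed to 20.2 to 34.6, 17.9 to 35.1, 27.7 to 41.4 and 28.5 to 53.7 CPM in the same groups, and 1 of 3 tested (Clec1b) was called higher. Classical monocyte markers had 3 of 10 called higher, Plac8 and Chil3 among them, and 3 called lower (Ccr2, Vcan and S100a4). Nonclassical ones had 1 higher (Treml4) and 2 lower (Ace and Cx3cr1) of 9, and macrophage identity genes 2 lower (C1qa and C1qb) of 10. That identity list includes Mertk and Cd68, and C1qa and C1qb are counted again below among genes of phosphatidylserine recognition. Neutrophil and dendritic cell markers had 1 higher each (Cxcr2 of 6 and Clec9a of 9 tested). The part of any of these sets in the Cd36 and Scarb1 results was not tested.

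The third comparison asked what ISRIB changed in macrophages, as the mean of its differences in young and old mice. Cd36 was the 1 gene called, and it was higher with ISRIB. Of all genes tested, 0.83% were called (0.452% higher, 0.378% lower), and the median log2 difference of the 10 genes was -0.10 against 0.00 over all genes. An unadjusted p under 0.05 was found for 7 of the 10, 3 higher (Cd36, Mertk, Mfge8) and 4 lower (Scarb1, Stab1, Msr1, Olr1).

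Cd36 rose by 0.76 ± 0.15 with ISRIB (SE; 95% interval 0.46 to 1.06; 1.70-fold; edgeR adjusted p = 0.0179). The call was kept in 17 of 19 fits without 1 library and lost without young ISRIB replicate 1 or 2 (adjusted p up to 0.0620), and it was lost when all 39 libraries shared 1 estimate of the spread (edgeR adjusted p = 0.265, range over 6 alternatives 5.89e-12 to 0.265). Without the young ISRIB library that stood apart, which had the lowest Cd36 of its group (142 CPM), the difference was 0.88 (edgeR adjusted p = 4.24e-04). Of the 10 mature alveolar macrophage markers, 1 (Siglecf) was called higher with ISRIB. The 10 proliferation genes had a median of -0.71 with 1 called lower (Top2a), and their summed means were 381 ± 24.4 CPM in young saline, 237 ± 163 in young ISRIB, 340 ± 168 in old saline and 209 ± 49.0 in old ISRIB. Classical and nonclassical monocyte markers had 1 called lower each (S100a4 and Adgre4). The part of these in the Cd36 result was not tested.

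Mertk stood at 350, 326, 376, 359 and 450 CPM in young saline and at 545, 505, 467 and 501 CPM in young ISRIB. It stood at 395, 397, 481, 406 and 600 CPM in old saline and at 495, 442, 484, 505 and 537 CPM in old ISRIB. In young mice every ISRIB library was above every saline library, while in old mice 1 saline library, replicate 5, was the highest of all 19. The averaged ISRIB difference was 0.28 ± 0.07 (95% interval 0.13 to 0.44; edgeR adjusted p = 0.0593), which did not pass. It passed under 3 of 6 alternatives (DESeq2, no filter on low counts and the replicate block; range 0.00683 to 0.481) and without young saline replicate 5, young ISRIB replicate 3, or old saline replicate 3 or 5.

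Scarb1 and Mfge8 came near the threshold or varied too widely to pass. Scarb1 differed by -0.35 ± 0.10 with ISRIB (edgeR adjusted p = 0.0688), and passed under 3 of 6 alternatives (DESeq2, no filter and the replicate block; range 0.00101 to 0.0736). It also passed without young ISRIB replicate 3 (adjusted p = 0.00927) or old saline replicate 3 or 5. Mfge8 stood at 461, 422, 408, 344 and 426 CPM in young saline, at 819, 949, 339 and 606 CPM in young ISRIB, at 848, 344, 511, 574 and 705 CPM in old saline and at 1126, 498, 251, 1071 and 860 CPM in old ISRIB. Young saline was tight and the other 3 groups spread widely, and the difference was 0.55 ± 0.22 (edgeR adjusted p = 0.191). Stab1 differed by -0.35 ± 0.13 (edgeR adjusted p = 0.148), Msr1 by -0.30 ± 0.13 (0.208), Olr1 by -0.19 ± 0.09 (0.255) and Gas6 by -0.26 ± 0.22 (0.618). Axl, at -0.01 ± 0.04 (95% interval -0.10 to 0.08), and Cd68, at 0.08 ± 0.06 (-0.03 to 0.20), had narrow intervals around 0.

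**Figure D4:**
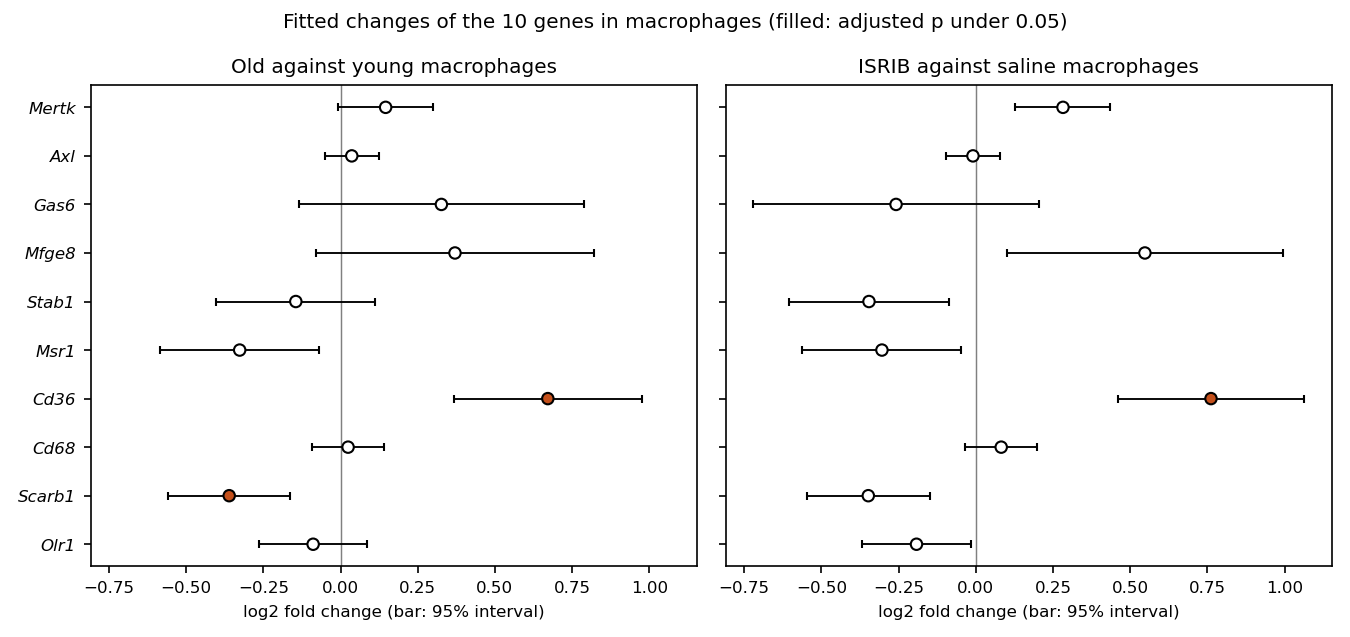
Log2 difference of each of the 10 genes in macrophages with age (old against young) and with ISRIB (against saline), with 95% intervals; filled symbols are called at an adjusted p under 0.05. Cd36 is called in both panels (0.67 with age, 0.76 with ISRIB) and Scarb1 with age alone (-0.36).

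Taken one age or treatment at a time, none of the 10 genes was called in macrophages. ISRIB called 0% of genes in old and 0% in young macrophages (1112 and 1513 genes had an unadjusted p under 0.05 in edgeR, and DESeq2 called 43 and 105), and age called 1.16% in saline (0.937% higher, 0.222% lower) and 0.937% in ISRIB (0.444% higher, 0.493% lower). The closest was Cd36 with age in ISRIB-treated macrophages, 0.87 ± 0.22 (edgeR adjusted p = 0.0534), beside 0.48 ± 0.20 in saline (adjusted p = 0.306). The first of these passed under 4 of 6 alternatives (upper-quartile factors, DESeq2, no filter on low counts and the replicate block; range 9.95e-08 to 0.538) and in 6 of 19 fits that left out 1 library (without young ISRIB replicate 1 or 2 or any of old saline replicates 2 to 5), with a highest adjusted p of 0.170. Its ISRIB difference was 0.96 ± 0.20 in old macrophages (edgeR adjusted p = 0.144) and 0.57 ± 0.21 in young ones (adjusted p = 0.266). Without young ISRIB replicate 3, ISRIB in young macrophages called 304 of 12504 genes, and 3 of the 10: Mertk (adjusted p = 0.0222), Cd36 (0.0222) and Scarb1 (0.0490).

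Whether ISRIB acted differently at the 2 ages was tested directly. No gene of the 10 passed, and 0% of all genes did (621 had an unadjusted p under 0.05 in edgeR, and DESeq2 called 0). Mertk had the smallest p of the 10: its ISRIB difference was 0.47 ± 0.11 in young and 0.10 ± 0.10 in old macrophages, an interaction of -0.37 ± 0.15 (95% interval -0.68 to -0.06; edgeR adjusted p = 0.954). For Cd36 the interaction was 0.39 ± 0.29 (-0.22 to 0.995; edgeR adjusted p = 0.973), an interval that includes 0.

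In naive monocytes none of the 9 genes tested was called with ISRIB or with age, or for the interaction of ISRIB and age; Gas6 did not pass the filter on low counts. All genes tested gave 0% with ISRIB (911 with an unadjusted p under 0.05 in edgeR, 1 called by DESeq2), 0.123% with age (0.0986% higher, 0.0247% lower) and 0% for the interaction (865 with an unadjusted p under 0.05 in edgeR, 0 by DESeq2). Olr1 had the smallest p, with ISRIB. It stood at 5.98, 5.99, 7.53, 1.74 and 3.87 CPM in young saline, 8.95, 5.40, 12.1, 11.5 and 5.93 in young ISRIB, 6.95, 4.71, 5.95, 5.18 and 8.15 in old saline and 8.15, 10.9, 13.6, 10.3 and 16.3 in old ISRIB. The highest old saline and the lowest old ISRIB library were both at 8.15 CPM, and the young groups overlapped. The difference was 0.87 ± 0.22 (unadjusted p = 6.58e-04, edgeR adjusted p = 0.552), and it passed when all 39 libraries shared 1 estimate of the spread (0.0446; range over 6 alternatives 0.0446 to 0.746). Monocyte Cd36 spread from 5.99 to 143 CPM, and its age difference of 0.19 ± 0.36 had an interval of -0.57 to 0.94 that covers the difference seen in macrophages.

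Whether age acted differently in the 2 cell types was also tested directly; 0 of the 10 genes and 0.743% of all genes passed (0.449% higher, 0.294% lower). Scarb1 came closest: it differed with age by -0.36 ± 0.10 in macrophages and by 0.03 ± 0.06 in monocytes, an interaction of -0.38 ± 0.12 (95% interval -0.63 to -0.14; edgeR adjusted p = 0.132) that passed in 1 of 39 fits leaving out a library, the one without young ISRIB macrophage replicate 1 (adjusted p = 0.0261). Msr1 gave -0.52 ± 0.20 (edgeR adjusted p = 0.260) and Cd36 0.50 ± 0.42 (adjusted p = 0.705).

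Other genes of the pathway were read from 4 lists. Between the cell types, where 79.2% of all genes were called (39.9% higher, 39.2% lower), the counts of each list are to be read beside that background. Of 21 tested genes of phosphatidylserine recognition, 14 were called higher and 6 lower in macrophages than in monocytes, with a median log2 difference of 0.87. The complement components C1qa, C1qc and C1qb, which opsonise dying cells, were 8.40, 7.68 and 6.51 higher, and Thbs1, Itgb3 and Cd300a had differences of -5.76, -4.24 and -1.84. Of 12 other scavenger receptors tested, 9 were called higher and 3 lower (median 2.55), led by Marco, a class A receptor of alveolar macrophages (8.54), Mrc1, the mannose receptor (5.41), and Cd5l (4.66). Of 20 genes of lipid handling, 13 were called higher and 5 lower (median 1.81), led by the lipase Lpl (5.35), the fatty acid carrier Fabp5 (4.88) and the nuclear receptor Pparg (3.92). Of 21 tested genes of the engulfment machinery, which carries the signal from the receptors to the cytoskeleton and the phagosome, 7 were called higher and 10 lower (median -0.02). Ptk2, Atg5 and Ucp2 led those higher (1.53, 1.29 and 0.89), and Cd2ap, Elmo2 and Rac2 those lower (-1.74, -1.25 and -0.97).

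With age in macrophages, called genes of these lists moved in both directions. The background is 4.86% of all genes called (3.12% higher, 1.74% lower). Of 21 genes of phosphatidylserine recognition 4 were lower, Itgav (-0.50 ± 0.07, edgeR adjusted p = 1.85e-04), C1qa (-0.52 ± 0.13, 0.0154), C1qb (-0.51 ± 0.13, 0.0274) and C1qc (-0.48 ± 0.12, 0.0150), and 1 was higher, the inhibitory receptor Cd300a (0.39 ± 0.09, 0.0138). Itgav encodes the integrin subunit that Mfge8 binds. Of 12 other scavenger receptors 2 were called: Marco rose by 2.25 ± 0.33 (edgeR adjusted p = 1.96e-04) and Scarf1 by 0.98 ± 0.23 (0.0138). Marco means were 15.4 ± 12.0 CPM in young saline, 8.38 ± 6.88 in young ISRIB, 30.7 ± 14.9 in old saline and 87.3 ± 37.2 in old ISRIB, so like Cd36 it was highest in old ISRIB macrophages. Marco is also on the list of mature alveolar macrophage markers, so this is the call already counted there. Of 20 lipid handling genes 1 was called, Fabp4, which rose by 0.67 ± 0.14 (edgeR adjusted p = 0.00547), and of 21 genes of the engulfment machinery 1 was called, Ucp2, which fell by 0.16 ± 0.05 (0.0446); both counts are near the background. With ISRIB, which called 0.83% of all genes, Mrc1 rose by 0.35 ± 0.08 and Thbs1 fell by 1.30 ± 0.29 (edgeR adjusted p = 0.0341 for each), and no gene of engulfment or lipid handling was called. Within single treatments, Fabp4 rose with age in saline (0.85 ± 0.20, edgeR adjusted p = 0.0256), and in ISRIB Marco rose (3.44 ± 0.51, 8.55e-04) and Itgav fell (difference -0.67 ± 0.11, 0.00141). C1qb was the 1 gene of the 4 lists called in the test of whether age acted differently in the 2 cell types (-1.70 ± 0.38, edgeR adjusted p = 0.0186). That value is the age difference in macrophages minus that in monocytes, so it is not the size of the macrophage fall (-0.51). Within monocytes, 0 of 20 tested genes of phosphatidylserine recognition were called with age.

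As a description, the genes whose log2(CPM + 1) followed each of the 10 most closely over the 19 macrophage libraries were taken from 9612 genes whose mean reached 5 CPM; the libraries share groups and depth. Cd36 was followed by Lgals3 (Pearson r = 0.911), Cd300a (0.896) and Adgre5 (0.888). Scarb1 was followed by Fermt3 (0.945), Gmpr (0.938) and Cdc42se1 (0.934), Msr1 by Ldhb (0.958), Pdpn (0.939) and Clec4a2 (0.917), and Mertk by Ints12 (0.937), Aff1 (0.917) and Pde3b (0.908). Olr1 was followed by Bub1b (0.837), Npl (0.837) and Tlr2 (0.824), and Mfge8 by Zranb3 (0.885), Pianp (0.877) and Slamf7 (0.876). For Axl they were Sf3a2 (0.819), Flna (0.812) and Stub1 (0.807), and for Cd68 Rnf13 (0.818), Osbpl8 (0.808) and Myof (0.807). For Stab1 they were Sars2 (0.805), Ndufb3 (0.777) and Sec11a (0.760), and for Gas6 Ckb (0.777), Ccl2 (0.762) and Gnl1 (0.756). None of the 10 genes was among the 3 closest to another, but this ranking took the highest positive r only. Among pairs of the 10, the largest r of either sign was that of Cd36 and Scarb1 (-0.874). Next came Scarb1 and Mertk (-0.753), Cd68 and Mfge8 (0.726), Cd36 and Olr1 (-0.722), and Olr1 and Msr1 (0.706). The age calls of Cd36 and Scarb1 are thus not to be read as independent of each other.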

How the data were processed

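RNA of sorted mouse lung monocytes (20 libraries) and macrophages (19) was sequenced from polyA-selected libraries made from 3 ng of RNA, per the labels' protocols. The deposited table holds counts, whole reads per Ensembl gene, 1 column per library. The submitters' processing notes name bcl2fastq 2.19.1, FastQC, Trimmomatic 0.36, STAR 2.6.0, HTSeq 0.11.2 and the mouse build mm10; the strand setting and the gene annotation were not given in the sources used here. GENCODE M21 (GRCm38) gave symbols for 97.8% of rows; the rest held at most 0.160% of any library's counts. No 2 libraries of a group were duplicates (76 pairs, chi-square per degree of freedom 7.26 to 57.7). Genes were filtered with filterByExpr (minimum count 10, minimum total 15), scaled by TMM and tested with edgeR 4.0.16 (glmQLFit, glmQLFTest; R 4.3.3) with 1 mean per group, on the 19 macrophage, 20 monocyte or all 39 libraries, leaving 12171, 12170 and 13587 genes; p-values were adjusted over all of them and called under 0.05. Standard errors were derived from the F statistic and 95% intervals from the t distribution. Scripts were tested on simulated data. Alternatives were RLE and upper-quartile factors, DESeq2 1.42.0, no filter, a replicate block, all 39 libraries in 1 fit, and leaving out each library. Named genes are the 10 members, up to 3 called genes per direction of each pathway list with the largest difference and a mean of at least 5 CPM, and the 3 genes most like each member. The 10 genes, the lists and the tests were chosen with earlier results of these data known, so nothing here is independent support for them. Promoter sequences are from RefSeq.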

Additional observations from a re-analysis of the deposited data

Results flagged for a closer look

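Each of the 10 genes was looked at in each of the 8 groups for a library whose gap to its nearest neighbour, over the range of the group, passed Dixon's 95% critical value. Of 80 such sets 4 passed, and chance alone passes about 1 in 20. Axl was lowest in old ISRIB macrophage replicate 4 at 1955 CPM, against 2168 to 2237 CPM in the other 4. Stab1 was lowest in old saline macrophage replicate 4 at 95.7 CPM, against 127 to 136 CPM. Stab1 was highest in old ISRIB monocyte replicate 2 at 19.99 CPM, against 4.005 to 8.20 CPM. Gas6 was highest in young ISRIB monocyte replicate 4 at 1.47 CPM, the other 4 libraries of that group holding no Gas6 count. Axl in macrophages and Stab1 in either cell type were not called with age or ISRIB, and Gas6 was not tested within monocytes.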

How the results depend on the processing

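The 10 called differences between macrophages and monocytes kept direction and call under 5 of 5 alternatives and without any 1 of 39 libraries. The counts of called genes within a cell type moved more. For all genes, age in macrophages (592) gave 975 with no filter and 340 with all 39 libraries fitted together; age in saline macrophages (141) gave 294 with DESeq2, 468 with no filter and 60 with all 39; age in ISRIB macrophages (114) gave 260, 405 and 50; ISRIB in macrophages (101) gave 440, 640 and 17, and 343 with the replicate block. From 0, ISRIB in old macrophages gave 43, 220 and 1, and ISRIB in young macrophages 105 with DESeq2, 224 with no filter and 10 with the block. Age in monocytes (15) gave 83 with DESeq2, 40 with no filter and 44 with all 39, and the cell type by age interaction (101) gave 222 with DESeq2. The ISRIB by age interaction (0) gave 33 with no filter and 1 with the block in macrophages, and 12 with no filter and 22 with all 39 in monocytes; ISRIB in monocytes (0) gave 1 with DESeq2 and 2 with all 39.

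Of the 10 genes, age in macrophages (2 called) gave 4 with no filter and 1 with all 39, and ISRIB in macrophages (1) gave 3 with DESeq2, 6 with no filter, 3 with the block and 0 with all 39. From 0, age in saline macrophages gave 4 with no filter and 1 with the block; age in ISRIB macrophages gave 1 with upper-quartile factors, 1 with DESeq2, 2 with no filter and 1 with the block; ISRIB in old macrophages gave 1 with DESeq2 and 2 with no filter; ISRIB in young macrophages gave 1, 3 and, with the block, 1; ISRIB in monocytes gave 1 with all 39. The cause was not tested. Upper-quartile factors turned Olr1 with age in saline macrophages from 0.014 to -0.00893, and turned Axl in ISRIB by age interaction in monocytes from 0.0095 to -0.00720, the block to -0.00753.

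Leaving out 1 library moved the counts of all genes to 415 to 723 (age in macrophages), 47 to 289 (age in saline), 33 to 161 (age in ISRIB), 13 to 649 (ISRIB), 0 to 30 (ISRIB in old), 0 to 304 (ISRIB in young), 6 to 25 (age in monocytes), 68 to 144 (cell type by age), 0 to 1 (ISRIB by age in macrophages) and 10647 to 10852 (cell types, 10755). Of the 10 genes it gave 1 to 2 with age in macrophages, 0 to 1 with age in ISRIB macrophages, 0 to 4 with ISRIB (4 without old saline replicate 3, 0 without young ISRIB replicate 1 or 2), 0 to 1 with ISRIB in old, 0 to 3 with ISRIB in young (3 without young ISRIB replicate 3) and 0 to 1 for cell type by age. Taken over all genes that passed the filter, same-numbered libraries showed little shared deviation. In macrophages the correlation over 27 pairs was -0.148 to 0.165, with 2 over 0.1 (median 0.00384, against 0.00150 for pairs of other numbers). In monocytes it was -0.191 to 0.242 over 30 pairs, with 4 over 0.1 (median -0.0142, against -0.000953). A correlation over all genes cannot show whether some genes deviate together, so the basis of the block results above was not settled. Depth limits Gas6 in monocytes, with 51 counts in 20 libraries.

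Leaving out 1 library also changed the sign of uncalled log2 differences. For age in saline macrophages the range was Axl -0.0270 to 0.00931, Olr1 -0.0868 to 0.10. For ISRIB averaged over ages in macrophages the range was Axl -0.0212 to 0.00145. For ISRIB by age interaction in monocytes the range was Axl -0.12 to 0.16, Cd36 -0.55 to 0.13, Cd68 -0.0495 to 0.0885. For age averaged over treatments in monocytes the range was Cd36 -0.0114 to 0.40, Cd68 -0.0564 to 0.0149, Mertk -0.000384 to 0.32, Mfge8 -0.0487 to 0.0902, Scarb1 -0.00652 to 0.0491. For age in ISRIB macrophages the range was Cd68 -0.0566 to 0.0344, Mertk -0.0884 to 0.00487, Mfge8 -0.0661 to 0.39, Stab1 -0.18 to 0.0311. For cell type by age interaction the range was Gas6 -1.48 to 1.37, Mertk -0.14 to 0.17. For ISRIB by age interaction in macrophages the range was Gas6 -0.0562 to 0.53, Scarb1 -0.13 to 0.17, Stab1 -0.0241 to 0.26. For ISRIB in old macrophages the range was Gas6 -0.29 to 0.0272. For ISRIB averaged over ages in monocytes the range was Stab1 -0.48 to 0.0845.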
